A study of Neurospora crassa with 12 samples.

Results

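*Neurospora crassa* reduces sulfate to sulfide in 4 steps that are encoded by 5 genes, and the transcripts of these 5 genes were followed here in cells with and without the sulfur regulator CYS-3. The members were taken by their locus identifiers among the 9758 genes of each library: *cys-11* (NCU01985), *adsk-1* (NCU09896), *cys-5* (NCU02005), *cys-2* (NCU04077) and *cys-4* (NCU05238). RNA sequencing of poly(A) RNA was performed on 12 mycelial cultures, 3 biological replicates of each of 4 groups. The groups were starved Δ*cys-3* cells, starved wild-type cells, Δ*cys-3* cells given 24 μM sulfate and wild-type cells given 24 μM sulfate. All cultures of both strains grew for 24 h in Vogel's minimal medium with 500 mg/L methionine under constant light and were then washed and held for 4 h in medium with no sulfur source (starved) or with 24 μM sulfate.

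Wild type was the strain FGSC 4200. The Δ*cys-3* strain carries a partial deletion, in which a hygromycin resistance cassette replaces part of the upstream region, the first exon and part of the intron of *cys-3*. It is 1 homokaryotic strain, and it cannot grow without added methionine. A deletion of 1 gene in 1 strain was thus compared with 1 wild type, and any other difference between both strains cannot be told apart from the loss of *cys-3*.

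Sulfate is chemically inert until ATP sulfurylase joins it to ATP to form adenosine 5′-phosphosulfate (APS). APS kinase phosphorylates APS to 3′-phosphoadenosine-5′-phosphosulfate (PAPS), PAPS reductase releases sulfite from PAPS, and sulfite reductase reduces sulfite to sulfide, which is built into cysteine and homocysteine. CYS-3 is a basic leucine zipper transcription factor that activates sulfur acquisition genes of *N. crassa* when sulfur is scarce, and methionine is a preferred sulfur source that keeps such genes low.

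*cys-11* encodes ATP sulfurylase (chromosome I, 1774672 to 1778095), *adsk-1* encodes APS kinase (chromosome I, 3992898 to 3994238) and *cys-5* encodes PAPS reductase (chromosome I, 1702853 to 1704727). Sulfite reductase is encoded by *cys-2* (chromosome VI, 2667605 to 2671421) and *cys-4* (chromosome IV, 5650802 to 5656284). Positions are those of genome version 12 in the deposited values, and the RefSeq annotation of assembly NC12 gives the same positions for all 5 genes. Levels are given as FPKM, the fragments of a transcript scaled to its length and to the fragments mapped in the library. Genes with a group mean of 10 FPKM or more were tested, which includes all 5 members, but *cys-5* reached that level only in wild type; with no minimum the same number of members was called in every comparison. FPKM is scaled for transcript length, so levels of different genes can be set beside each other. This is less certain for *adsk-1* and *cys-5*, which each overlap a neighboring gene.

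The intervals that accompany the deposited FPKM correspond to 7.33 to 11.2 megareads per library, 7.33 to 8.96 megareads in Δ*cys-3* and 7.62 to 11.2 megareads in wild type. Replicates of a group correlated at r of 0.991 to 0.996 across genes on the log2(FPKM + 1) scale. Transcripts of *cys-3* were read at 71.1 to 73.7 FPKM in starved Δ*cys-3* cells and 132 to 162 FPKM in starved wild-type cells, and at 74.9 to 79.7 FPKM in Δ*cys-3* cells and 58.7 to 66.6 FPKM in wild-type cells in 24 μM sulfate. Because only part of *cys-3* was deleted, the value of the whole gene does not check the genotype labels. As markers of cells other than vegetative mycelium, 4 conidiation genes (*con-6*, *con-8*, *con-10* and *eas*) summed to 31.3 to 35.6 FPKM in starved Δ*cys-3* cells and 20.1 to 23.3 FPKM in starved wild-type cells. In 24 μM sulfate the sums were 29.6 to 49.7 FPKM in Δ*cys-3* cells and 12.9 to 24.0 FPKM in wild-type cells, and all 4 genes were detected in every library except *con-10* in 1 wild-type library in 24 μM sulfate. Their sum was thus higher in Δ*cys-3* than in wild type in either medium, and its part in the strain differences described here was not tested.

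During starvation the transcripts of *cys-11*, *cys-5*, *cys-2* and *cys-4* were all at least 2-fold lower in Δ*cys-3* than in wild type, and the size of the difference ran from 2.48-fold for *cys-4* to 38.1-fold for *cys-5*. *adsk-1*, the APS kinase gene between ATP sulfurylase and PAPS reductase in the pathway, differed by less than 2-fold. In every one of the 5 genes the 3 starved Δ*cys-3* libraries lay below the 3 starved wild-type libraries, as did 26.7% of all tested genes. The comparison asks how much of the transcript of each step depends on CYS-3 when sulfur is absent. In bulk RNA a lower level can come from fewer cells that express a gene or from less RNA per cell, which cannot be told apart.

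**Figure D1:**
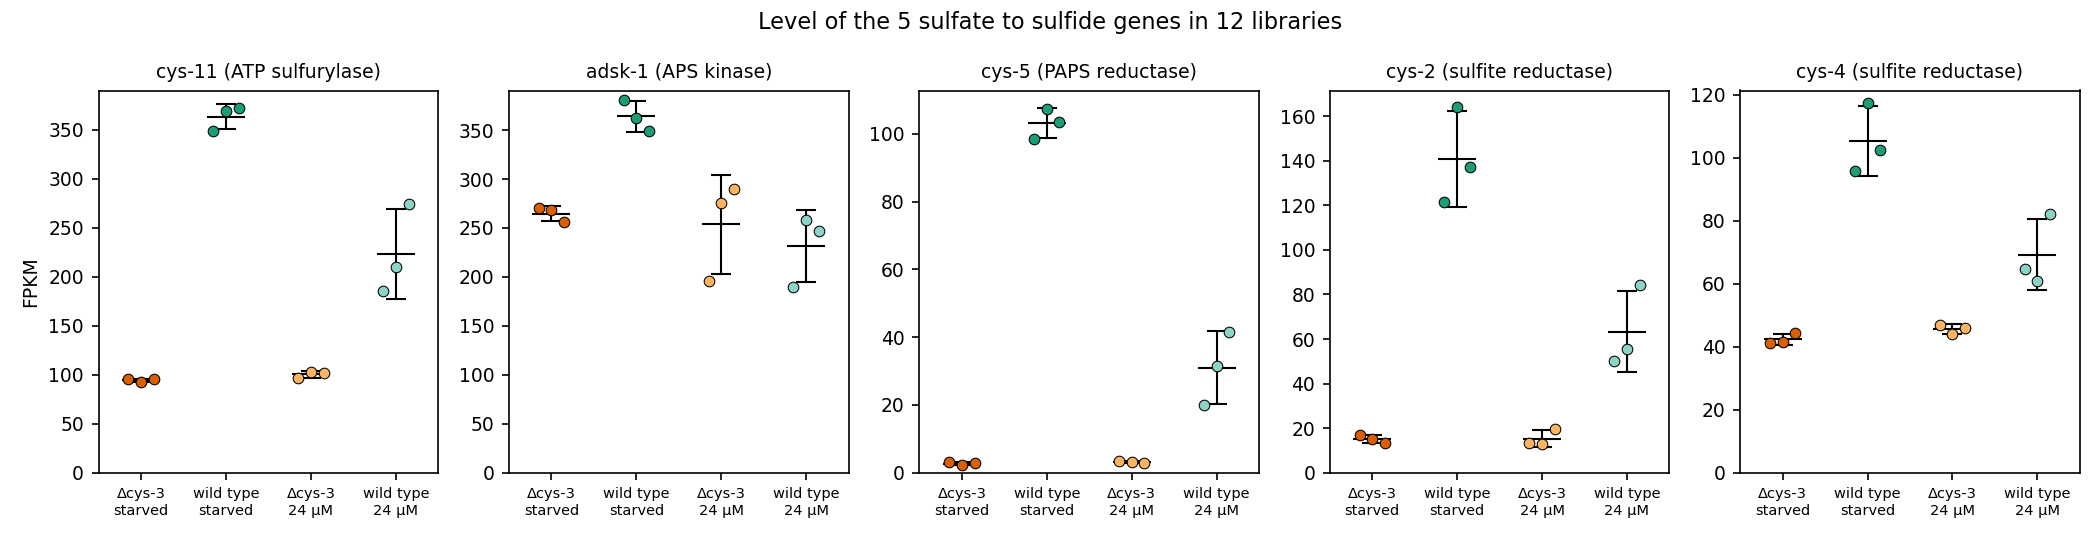
Level of the 5 genes in FPKM (vertical axis, from 0, a separate scale for each gene) in the 4 groups (horizontal axis); each point is 1 library, the long bar is the group mean and the whiskers are ± 1 SD (n = 3). Starved wild-type libraries are highest for every gene, and both Δ*cys-3* groups lie below both wild-type groups for all genes except *adsk-1*.

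ATP sulfurylase transcripts (*cys-11*) were at 95.3, 92.0 and 95.3 FPKM in starved Δ*cys-3* cells, against 349, 369 and 372 FPKM in starved wild-type cells. The mutant libraries lay close together and far below the wild-type ones. The mean was 94.2 ± 1.89 FPKM in Δ*cys-3* and 363 ± 12.5 FPKM in wild type (SD, n = 3), 3.85-fold lower in the mutant. In the limma fit over all tested genes the log2 difference was −1.93 (SE 0.111, adjusted p = 7.4e-08).

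PAPS reductase transcripts (*cys-5*) were at 3.09, 2.19 and 2.83 FPKM in starved Δ*cys-3* cells, against 98.6, 107 and 104 FPKM in starved wild-type cells. The groups did not approach each other, and the mean of 2.70 ± 0.462 FPKM in Δ*cys-3* was 38.1-fold below the mean of 103 ± 4.39 FPKM in wild type (SD, n = 3). The log2 difference was −4.82 (SE 0.193, adjusted p = 2.3e-09), a difference on the log2(FPKM + 1) scale that understates the ratio of a gene this low in 1 group. By the deposited intervals, the values rest on 40.1 to 63.1 reads per library in starved Δ*cys-3* and on 1085 to 1279 in starved wild type, although for *cys-5* such reads do not follow FPKM closely from library to library (SD of the log2 of reads per FPKM 0.408).

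Of the sulfite reductase genes, *cys-2* was at 16.9, 15.2 and 13.5 FPKM in starved Δ*cys-3* cells, against 121, 164 and 137 FPKM in starved wild-type cells. The wild-type libraries were more spread than for *cys-11*, but all lay far above the mutant ones, a 9.25-fold difference of the means (log2 difference −3.12, SE 0.195, adjusted p = 1.7e-07). The transcripts of *cys-4*, which also encodes sulfite reductase, were at 41.1, 41.5 and 44.5 FPKM in starved Δ*cys-3* cells, against 95.8, 118 and 102 FPKM in starved wild-type cells. Its means of 42.4 ± 1.81 FPKM in Δ*cys-3* and 105 ± 11.1 FPKM in wild type (SD, n = 3) differed by 2.48-fold (log2 difference −1.29, SE 0.106, adjusted p = 2.3e-06).

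APS kinase transcripts (*adsk-1*) were at 270.1, 268 and 256 FPKM in starved Δ*cys-3* cells, against 381, 362 and 349 FPKM in starved wild-type cells. The mutant was lower in all 3 libraries, but the 1.38-fold difference of the means was under 2-fold (log2 difference −0.46, SE 0.140, adjusted p = 0.0230). That adjusted p was above 0.05 when any of 5 of the 6 starved libraries was left out, at 0.0509 to 0.0724, and only leaving out wild-type replicate 3 kept it below. With reads taken from the deposited intervals in place of FPKM, the log2 difference was −0.04 (limma-voom, adjusted p = 0.817). For *adsk-1* these reads do not follow FPKM from library to library (SD of the log2 of reads per FPKM 0.221, against a median of 0.0319 over tested genes), and the cause was not tested.

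With 4 of the 5 genes called lower in starved Δ*cys-3* cells, the share stood against 2.76% of the 5035 tested genes called lower in this comparison. Being called required 3 things: an adjusted p under 0.05, a ratio of group means of 2-fold or more, and a mean level of 10 FPKM or more in 1 or both of these groups. Over the 5 genes the median log2 difference was −1.93, and over all tested genes it was −0.01. All 5 had an adjusted p under 0.05 in this direction, as did 17.1% of tested genes. Among all genes 42 were called higher and 139 lower, and after quantile normalization 67 higher and 128 lower, with the same 4 of the 5 members called lower.

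**Figure D2:**
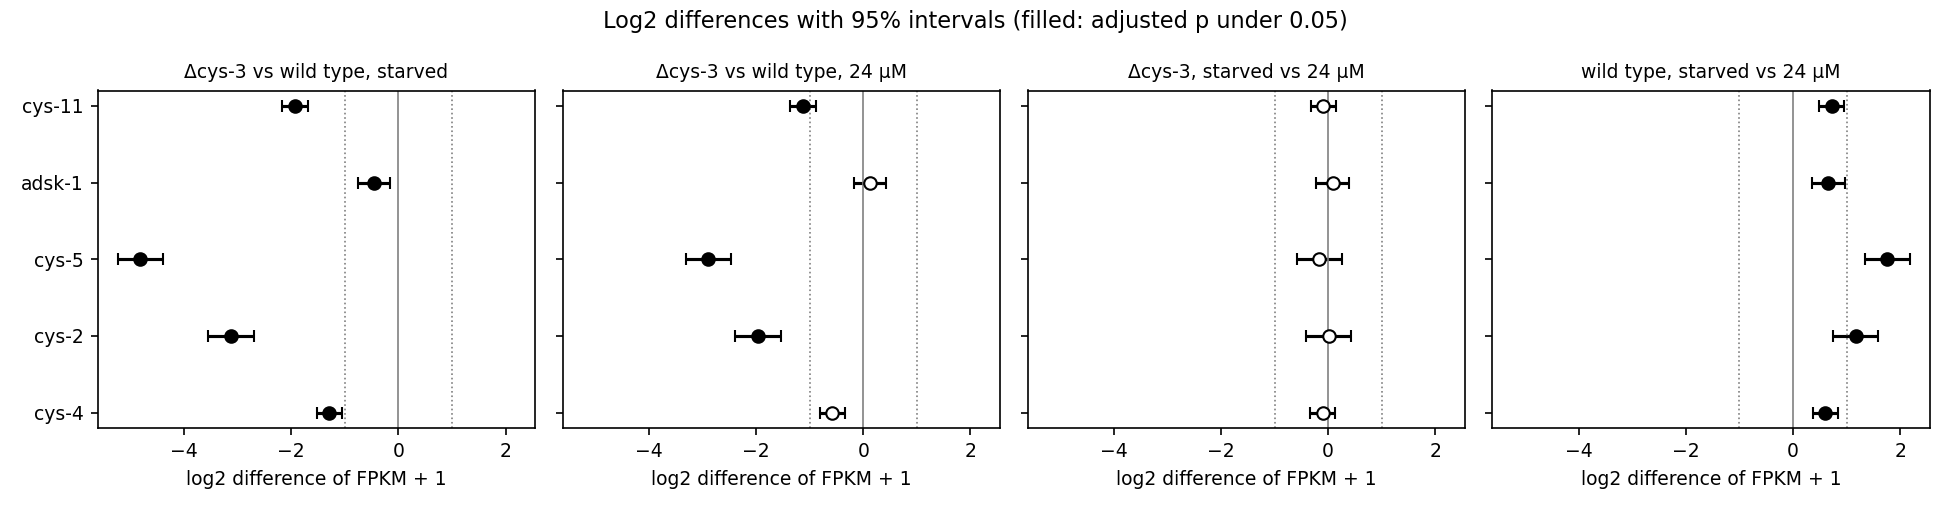
Differences of the 5 genes on the log2(FPKM + 1) scale (horizontal axis) in the 4 comparisons; points are estimates, whiskers are 95% intervals not adjusted for the number of genes, filled points have an adjusted p under 0.05 and dotted lines mark a 2-fold difference. The 4 genes other than *adsk-1* lie below 0 in both strain comparisons, and all 5 intervals include 0 for starvation of Δ*cys-3*.

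When sulfate was supplied at 24 μM, *cys-11*, *cys-5* and *cys-2* were still at least 2-fold lower in Δ*cys-3* than in wild type. *cys-4* lay 1.52-fold below wild type and did not pass the test, and the ranges of *adsk-1* overlapped between the strains. The comparison asks whether the strains differ in the parallel cultures held for the same 4 h with 24 μM sulfate. Few genes did: 8 of all tested genes were called (0.159%), 6 of them lower (0.119%), and 3 of these 6 were members. The other called genes that were lower were the sulfate permease gene *cys-13* (NCU03235), the predicted sulfur transporter gene *aap-7* (NCU04942) and *gst-4* (NCU10521), which is named as a glutathione transferase. The 2 genes called higher in Δ*cys-3* were the cysteine dioxygenase gene *cys-22* (NCU06625), 2.91-fold, and NCU03534, with a log2 difference of 3.61 that depends on the pseudocount because its level in wild type was near 0. The number of genes called over the whole genome depends on single sulfate-supplied wild-type libraries: leaving out replicate 2 gave 37, of which 10 were lower, with the same 3 members among them. Leaving out replicate 3 gave 5, of which 3 were lower, and 2 of the 5 members were then called, since *cys-11* was at 0.507 times the wild-type level and so just short of 2-fold.

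*cys-5* was at 3.45, 3.08 and 2.89 FPKM in Δ*cys-3* cells in 24 μM sulfate, against 19.9, 31.5 and 41.5 FPKM in wild-type cells in 24 μM sulfate. The mutant level was near that of starved mutant cells, while the wild-type libraries spread over a 2-fold range and stayed above every mutant library. The ratio of the means was 9.87-fold lower in Δ*cys-3* (log2 difference −2.89, SE 0.193, adjusted p = 7.1e-06).

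*cys-2* was at 13.5, 12.7 and 19.8 FPKM in Δ*cys-3* cells in 24 μM sulfate, against 50.3, 55.5 and 84.2 FPKM in wild-type cells in 24 μM sulfate. It was 4.12-fold lower in the mutant (log2 difference −1.97, SE 0.195, adjusted p = 2.7e-04). *cys-11* was at 96.3, 103 and 102 FPKM in Δ*cys-3* cells, against 186, 210.1 and 274 FPKM in wild-type cells, 2.22-fold lower in the mutant (log2 difference −1.13, SE 0.111, adjusted p = 2.7e-04). For both genes the highest mutant library was well below the lowest wild-type library.

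*cys-4* was at 47.0, 44.0 and 45.9 FPKM in Δ*cys-3* cells in 24 μM sulfate, against 64.7, 60.9 and 82.2 FPKM in wild-type cells in 24 μM sulfate. The groups did not overlap, an arrangement found with the mutant lower in 7.45% of tested genes, but the adjusted p of 0.0507 was just above the threshold (log2 difference −0.58, SE 0.106). The 95% interval of the difference ran from −0.81 to −0.35. It passed when wild-type replicate 2 was left out (adjusted p = 0.0131) and was at 0.0360 by limma-voom on the interval-derived reads.

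*adsk-1* was at 196, 276 and 289 FPKM in Δ*cys-3* cells in 24 μM sulfate, against 190, 258 and 247 FPKM in wild-type cells in 24 μM sulfate. The groups overlapped, and the log2 difference of 0.12 had an interval from −0.18 to 0.43 (adjusted p = 0.641). Replicate 1 was the lowest library in each strain.

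Starvation of Δ*cys-3* cells was not accompanied by a detectable difference in any of the 5 transcripts. The log2 differences between starved and sulfate-supplied mutant cells lay between −0.16 for *cys-5* and 0.08 for *adsk-1*, with adjusted p of 0.654 to 0.990. The comparison asks whether the mutant transcripts differ between both media. The strain cannot grow without added methionine, and whether its sulfate-supplied cells were also short of sulfur was not tested. The absence of a difference thus does not show that a response to starvation was lost without CYS-3. Among all tested genes 1 was called (0.0199%), the gene NCU07316, and 21 had an adjusted p under 0.05 (0.417%). The unadjusted p was under 0.05 for 851 genes (16.9%). No member was among them, from which little can be read with only 5 members.

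The 95% intervals give the range of mutant responses that the replicates allow. For *cys-11* the starved mutant level was between 0.796 and 1.11 times the level in 24 μM sulfate, for *cys-4* between 0.793 and 1.09 times, for *adsk-1* between 0.856 and 1.31 times, for *cys-2* between 0.75 and 1.35 times and for *cys-5* between 0.667 and 1.19 times, all on the FPKM + 1 scale. The starved libraries of *cys-11*, at 92.0 to 95.3 FPKM, all lay below the 96.3 to 103 FPKM of the mutant in 24 μM sulfate, as did the starved libraries of 16.4% of tested genes, but this difference of 1.06-fold did not pass the test. The other 4 genes overlapped between the media.

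In wild type all 5 transcripts rose during starvation, and those of *cys-5* and *cys-2* at least 2-fold. The level in starved cells was higher 3.33-fold for *cys-5*, 2.22-fold for *cys-2*, 1.63-fold for *cys-11*, 1.57-fold for *adsk-1* and 1.52-fold for *cys-4*. The comparison asks how the pathway responds when the sulfate it uses is withdrawn. Each starved wild-type library lay above each wild-type library in 24 μM sulfate in all 5 genes, as in 15.7% of tested genes.

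*cys-5* reached 98.6, 107 and 104 FPKM in starved wild-type cells, against 19.9, 31.5 and 41.5 FPKM in 24 μM sulfate. Its log2 difference of 1.76 (SE 0.193, adjusted p = 3.7e-05) was the largest of the pathway, and the lowest starved library exceeded the highest sulfate library by more than 2-fold. On the reads derived from the intervals the log2 difference was 1.15, still with an adjusted p under 0.05 (limma-voom, 1.5e-04). *cys-2* had a log2 difference of 1.17 (SE 0.195, adjusted p = 0.00110), with means of 141 ± 21.5 FPKM in starved and 63.3 ± 18.3 FPKM in sulfate-supplied wild type (SD, n = 3).

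The other 3 genes changed less than 2-fold. *cys-11* was at 349 to 372 FPKM in starved wild-type cells, against 186 to 274 FPKM in 24 μM sulfate (log2 difference 0.72, adjusted p = 5.8e-04). *cys-4* was at 95.8 to 118 FPKM in starved cells, against 60.9 to 82.2 FPKM in 24 μM sulfate (log2 difference 0.60, adjusted p = 0.00163). *adsk-1* was at 349 to 381 FPKM in starved cells, against 190 to 258 FPKM in 24 μM sulfate (log2 difference 0.66, adjusted p = 0.00554), but on the interval-derived reads its log2 difference was 0.22 with an adjusted p of 0.213 by limma-voom.

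Thus 2 of the 5 genes were called higher in starved wild type, against 2.78% of tested genes, and 5 of 5 had an adjusted p under 0.05 and were higher, against 11.1%. The median log2 difference was 0.72 over the 5 genes and −0.04 over all tested genes. The strain and medium comparisons share libraries, so the starved wild-type values enter both the difference from Δ*cys-3* and the response of wild type.

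**Figure D3:**
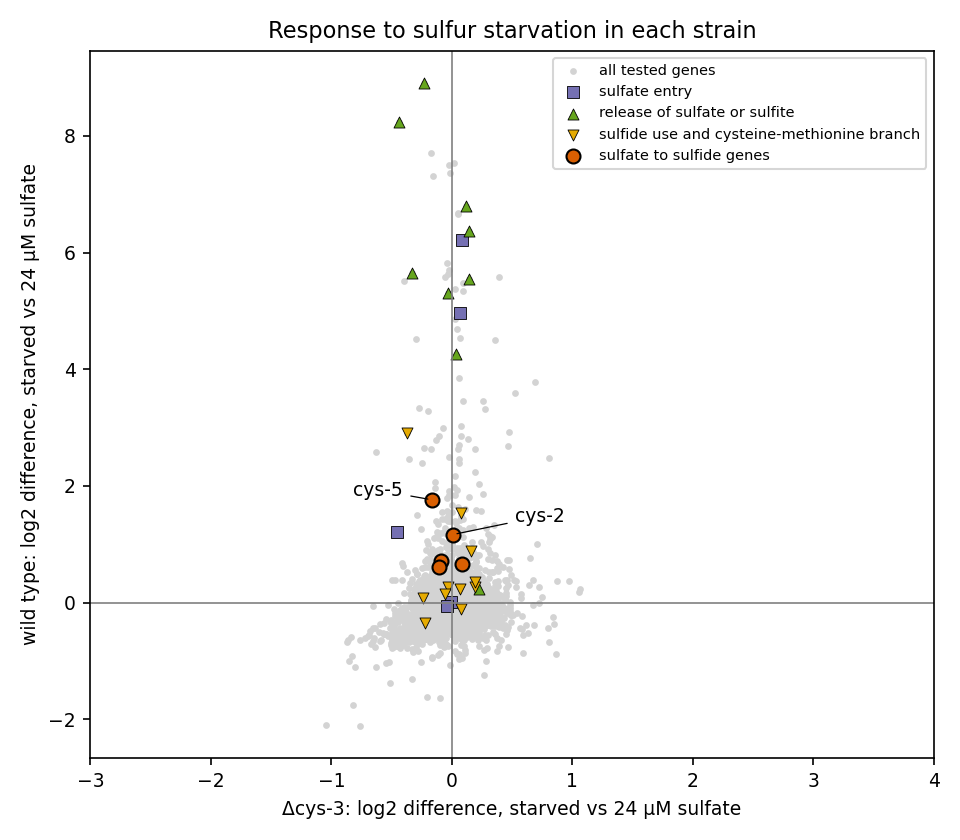
Log2 difference between starvation and 24 μM sulfate in Δ*cys-3* (horizontal axis) and in wild type (vertical axis), both on the log2(FPKM + 1) scale with unequal axis scales; grey points are the 5035 tested genes, and colored symbols are genes of the pathway and of the lists around it. The 5 sulfate to sulfide genes lie between 0.60 and 1.76 in wild type and between −0.16 and 0.08 in Δ*cys-3*.

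A response was the difference between both media in a strain. Whether sulfate-supplied Δ*cys-3* cells were also short of sulfur was not tested. A smaller response in the mutant thus means only a smaller difference between the media. The difference between the strains in their response to starvation was tested as an interaction over all 12 libraries. It was −1.93 on the log2 scale for *cys-5* (SE 0.273, adjusted p = 5.9e-04), −1.16 for *cys-2* (adjusted p = 0.0158), −0.81 for *cys-11* (adjusted p = 0.00511) and −0.71 for *cys-4* (adjusted p = 0.00873), so the response was smaller in Δ*cys-3* for these 4 genes. For *adsk-1* the interaction was −0.58 (interval −1.01 to −0.15, adjusted p = 0.0733) and did not pass. An adjusted p under 0.05 with a smaller response in the mutant was found in 7.71% of tested genes. With a difference of at least 2-fold between the responses also required, *cys-5* and *cys-2* were called, against 2.74% of tested genes. Leaving out replicate 3 of the sulfate-supplied mutant left 1 of the 5 genes called, with *cys-2* short of 2-fold, and on interval-derived reads the adjusted p of *cys-5* was 0.0708.

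The order of the 4 groups differed between the genes. *cys-5*, *cys-2*, *cys-4* and *cys-11* followed the order starved wild type, wild type in 24 μM sulfate, Δ*cys-3* in 24 μM sulfate and starved Δ*cys-3*, and the only neighbors with overlapping ranges were both mutant groups, in *cys-5*, *cys-2* and *cys-4*. *adsk-1* was highest in starved wild type and had overlapping ranges in all 3 other groups, where its means were 265 ± 7.63 FPKM in starved Δ*cys-3*, 254 ± 50.6 FPKM in Δ*cys-3* in 24 μM sulfate and 232 ± 36.6 FPKM in wild type in 24 μM sulfate (SD, n = 3). From the highest to the lowest group the mean spanned 38.1-fold for *cys-5*, 9.25-fold for *cys-2*, 3.85-fold for *cys-11*, 2.48-fold for *cys-4* and 1.57-fold for *adsk-1*.

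Within a group, the pathway was not expressed evenly. In starved wild-type cells *adsk-1* and *cys-11* had nearly equal levels of 364 ± 15.9 and 363 ± 12.5 FPKM, *cys-2* had 141 ± 21.5 FPKM, and *cys-4* and *cys-5* had 105 ± 11.1 and 103 ± 4.39 FPKM with overlapping ranges (SD, n = 3). In starved Δ*cys-3* cells no neighbors overlapped: *adsk-1* was 2.81-fold above *cys-11*, *cys-11* was 2.22-fold above *cys-4*, *cys-4* was 2.78-fold above *cys-2* and *cys-2* was 5.63-fold above *cys-5*. *cys-5* ranked 6732nd of 9758 genes by mean level in starved Δ*cys-3* cells and 849th in starved wild-type cells, while *adsk-1* ranked 343rd in starved Δ*cys-3* and 275th in starved wild type.

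Summed over the 5 genes, the pathway was at 419 ± 7.23 FPKM in starved Δ*cys-3* cells and 1076 ± 38.7 FPKM in starved wild-type cells, and at 418 ± 54.7 FPKM in Δ*cys-3* and 618 ± 109 FPKM in wild type in 24 μM sulfate (SD, n = 3). *adsk-1* made up 63.1% ± 0.938 of this sum in starved Δ*cys-3* cells and 33.9% ± 2.24 in starved wild-type cells (SD, n = 3). The share of *cys-5* was 0.645% ± 0.107 in starved Δ*cys-3* cells and 9.58% ± 0.151 in starved wild-type cells (SD, n = 3).

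Ratios between genes within a library do not depend on the depth of that library. They were used to ask whether transcripts for the same enzyme, or for enzymes of consecutive steps, moved in proportion. The ratio of *cys-2* to *cys-4*, both of which encode sulfite reductase, was 0.411, 0.367 and 0.304 in starved Δ*cys-3* cells, against 1.27, 1.40 and 1.34 in starved wild-type cells. In 24 μM sulfate it was 0.287, 0.290 and 0.433 in Δ*cys-3* cells, against 0.778, 0.911 and 1.02 in wild-type cells. *cys-2* was thus the less abundant of both in every mutant library and the more abundant in all starved wild-type libraries. Averaged over both media the ratio was 3.19-fold lower in Δ*cys-3* (mean log2 difference −1.67, two-sided exact permutation test, p = 0.005, adjusted p = 0.01 over 6 ratio tests), the smallest p that the 400 arrangements allow.

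The ratio of *cys-11* to *adsk-1*, which encode the enzymes of the first and second steps, averaged 0.356 ± 0.0147 in starved Δ*cys-3* cells and 1.00 ± 0.0762 in starved wild-type cells, and 0.405 ± 0.0757 in Δ*cys-3* and 0.966 ± 0.146 in wild type in 24 μM sulfate (SD, n = 3). It was 2.59-fold lower in Δ*cys-3* over both media (mean log2 difference −1.37, exact permutation test, p = 0.005, adjusted p = 0.01). The ratio of *cys-5* to *adsk-1* averaged 0.0102 ± 0.00178 in starved Δ*cys-3* cells and 0.284 ± 0.0217 in starved wild-type cells, and 0.0129 ± 0.00410 in Δ*cys-3* and 0.132 ± 0.0324 in wild type in 24 μM sulfate (SD, n = 3). It was 17-fold lower in Δ*cys-3* (mean log2 difference −4.09, exact permutation test, p = 0.005, adjusted p = 0.01). The 3 ratios therefore differed between strains by more than any rearrangement of the libraries within a medium.

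Between the media, averaged over both strains, none of the 3 ratios passed. The mean log2 difference was 0.34 for *cys-2* to *cys-4* (exact permutation test, p = 0.055, adjusted p = 0.0825), 0.41 for *cys-5* to *adsk-1* (p = 0.19, adjusted p = 0.228) and −0.06 for *cys-11* to *adsk-1* (p = 0.63). Within wild type alone, which was not tested separately, the difference was 0.57 for *cys-2* to *cys-4*, 1.13 for *cys-5* to *adsk-1* and 0.06 for *cys-11* to *adsk-1*. In Δ*cys-3* alone it was 0.12 for *cys-2* to *cys-4*, −0.31 for *cys-5* to *adsk-1* and −0.17 for *cys-11* to *adsk-1*.

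**Figure D4:**
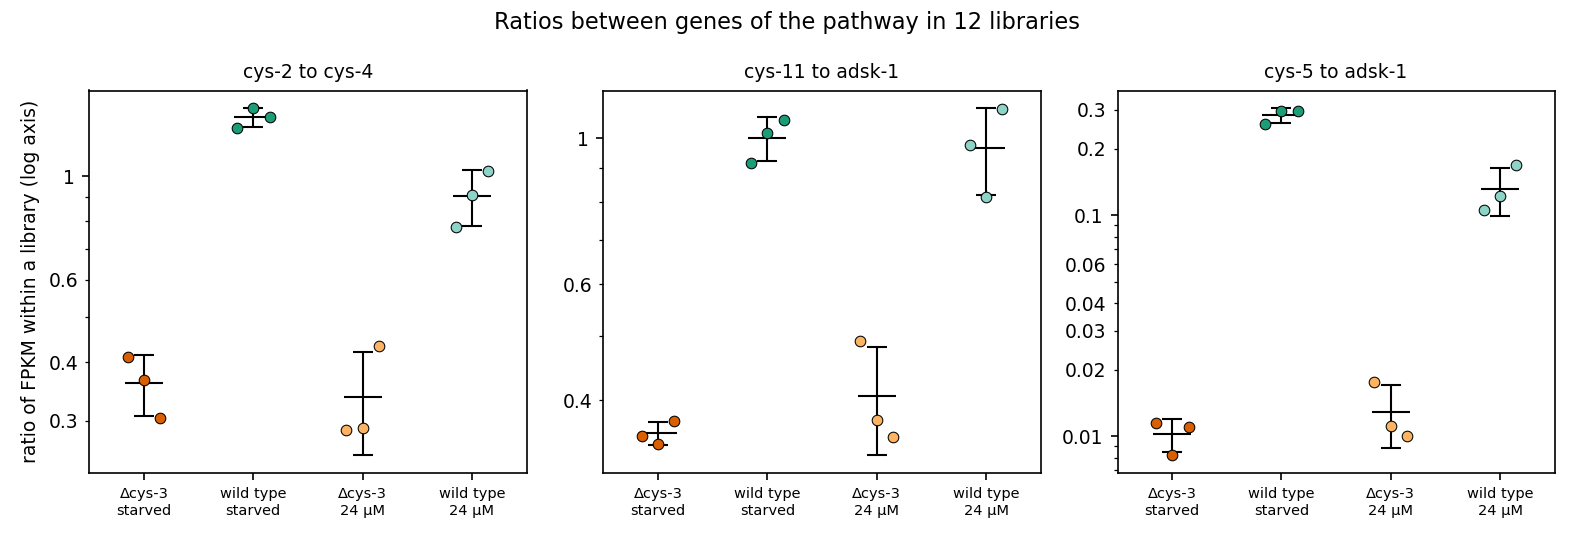
Ratio of FPKM between 2 genes within a library (vertical log axis) in the 4 groups (horizontal axis); each point is 1 library, the long bar is the mean and the whiskers are ± 1 SD (n = 3). Every Δ*cys-3* library lies below every wild-type library in all 3 ratios, for example between 0.287 and 0.433 for *cys-2* to *cys-4*, against 0.778 to 1.40 in wild type.

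In wild type, all 5 genes had larger coefficients of variation in 24 μM sulfate than in starvation. The share of all tested genes for which this held was not computed, so it is not read as particular to the pathway. Across genes, the lowest correlation between replicates of the series (r = 0.991) was also in the sulfate-supplied wild-type group. The coefficient of variation of *cys-5* was 4.26% in starved wild type and 34.8% in wild type in 24 μM sulfate, and that of *cys-11* was 3.44% in starved wild type and 20.4% in wild type in 24 μM sulfate. Replicate 3 was the highest of the sulfate-supplied wild-type libraries for *cys-11*, *cys-5*, *cys-2* and *cys-4*, and replicate 1 the lowest for *cys-11*, *cys-5* and *cys-2*. The sulfate permease genes had the same order, with *cys-13* at 5.03, 11.2 and 15.0 FPKM and *cys-14* at 1.36, 5.26 and 6.41 FPKM in replicates 1, 2 and 3. The fold differences that use this group depend on that spread: with each library left out in turn, the response of *cys-5* in wild type was 2.83-fold to 4.01-fold.

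Over the 12 libraries, *cys-11*, *cys-5*, *cys-2* and *cys-4* correlated with each other at Pearson r of 0.976 to 0.997 on the log2(FPKM + 1) scale, and *adsk-1* with these 4 at 0.523 to 0.555. These values describe 4 groups that differ in strain and medium and are not independent evidence of the comparisons above. The tested genes most like *cys-11* were *cys-5* (r = 0.997), *cys-2* (0.992) and the sulfate permease gene *cys-13* (0.991). The 3 nearest to *cys-5* were *cys-11*, *cys-13* and *cys-2*, and those nearest to *cys-2* were *cys-11*, *cys-5* and *cys-4*. For *cys-4* they were *cys-11*, *cys-2* and *cys-5*. At r of at least 0.95, *cys-11*, *cys-5* and *cys-2* had 5 such genes each and *cys-4* had 6 among 5034, whereas *adsk-1* had 0. The genes nearest to *adsk-1* were NCU04676 (r = 0.931), the pyridoxal reductase gene *pdx-6* (NCU07402; r = 0.910) and NCU03020 (r = 0.909).

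NCU04676 resembled *adsk-1* in having its highest mean in starved wild type, with 34.8 FPKM in starved Δ*cys-3* cells and 50.4 FPKM in starved wild-type cells, and of 35.1 FPKM in Δ*cys-3* and 30.2 FPKM in wild type in 24 μM sulfate. *cys-13* resembled *cys-11* and *cys-5*, with 0.884 FPKM in starved Δ*cys-3* cells and 23.6 FPKM in starved wild-type cells, and 1.58 FPKM in Δ*cys-3* and 10.4 FPKM in wild type in 24 μM sulfate.

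The genes around the pathway were followed in lists drawn up with earlier results of these data known. Of all tested genes, 2.76% were called lower in starved Δ*cys-3* and 2.78% were called higher in starved wild type. With an adjusted p under 0.05 alone, these shares were 17.1% and 11.1%. Of 5 genes of sulfate entry, all tested, 3 were lower in starved Δ*cys-3* than in starved wild type (*cys-14*, *trm-50* and *cys-13*), with log2 differences of −7.26, −4.97 and −3.71. The same 3 were higher in starved wild type than in wild type in 24 μM sulfate, by 6.21, 4.96 and 1.22 on the log2 scale. *cys-14* and *cys-13* encode sulfate permeases and *trm-50* a chromate transporter. The other 2, the predicted sulfate transporter genes *cys-23* and NCU09642, had log2 differences of −0.04 and −0.08 between the starved strains and did not pass. In 24 μM sulfate *cys-13* was the only gene of this list called between the strains, 6.60-fold lower in Δ*cys-3* (log2 difference −2.04, limma adjusted p = 0.00381), the same direction as *cys-11*, *cys-5* and *cys-2*. The mean of *cys-14* there was 3.58-fold lower in Δ*cys-3*, which did not pass (log2 difference −1.13, adjusted p = 0.231).

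Of 11 genes that release sulfate or sulfite from organic compounds, 9 were tested, and 8 were called lower in starved Δ*cys-3* and higher in starved wild type. By log2(FPKM + 1), the largest differences between the starved strains were those of the taurine dioxygenase genes *tdo-4* (log2 difference −9.19), *tdo-2* (−9.16), *suc-2* (−6.81) and *tdo-5* (−6.63) and of the arylsulfatase gene *ars-1* (−6.38). These log2 values depend on the pseudocount where the mutant level is near 0, and by the ratio of the means the order was *tdo-2* (3724-fold lower), *tdo-4* (1791-fold), *suc-2* (823-fold), *ars-1* (443-fold) and *tdo-5* (132-fold), of which all but that of *tdo-5* rest on few reads in the mutant and are imprecise. The median log2 difference of this list between the starved strains was −6.38, against −1.93 for the 5 sulfate to sulfide genes. In 24 μM sulfate none of the 9 was called between the strains, against 0.159% of all tested genes. Only *xdh-2* could be called there, with means of 20.4 FPKM in Δ*cys-3* and 17.6 FPKM in wild type. All the others lay below the minimum level for a call, with means of 8.37 FPKM or less. By the limma adjusted p alone none of the 9 was under 0.05, whereas 3 of the 5 sulfate to sulfide genes were. The pseudocount shrinks differences at such low levels, so this contrast does not show equal levels in both strains.

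Downstream of sulfide, 11 of 13 genes of sulfide use and of the cysteine and methionine branch were tested. In starved Δ*cys-3* cells 8 had an adjusted p under 0.05 and were lower and 1 was higher, against 17.1% and 20.7% of all tested genes. Only *cys-16*, a cystathionine γ-lyase gene (log2 difference −3.89), and *met-21* (−1.39) were called. In starved wild type 4 of the 11 were higher with an adjusted p under 0.05, against 11.1% of all tested genes. Of these 4, *cys-16* (2.91) and *met-21* (1.53) were called. The median log2 difference of this list was −0.43 between the starved strains and 0.26 between the media in wild type. Of 5 genes for side reactions of APS, PAPS and sulfite 1 was tested, *inl-3*, with log2 differences of 0.47 between the starved strains (adjusted p = 0.0109) and −0.41 between the media in wild type (adjusted p = 0.0314).

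Of 3 regulators, *cys-3* and *scon-2*, which encodes the F-box protein of the ubiquitin ligase that acts on CYS-3, were called lower in starved Δ*cys-3* and higher in starved wild type. *scon-3* did not pass in either comparison, with log2 differences of −0.03 between the starved strains and 0.16 between the media in wild type. Between starvation and 24 μM sulfate in Δ*cys-3*, no tested gene of these 5 lists passed, as none of the sulfate to sulfide genes did. Only 0.417% of all tested genes had an adjusted p under 0.05 there.

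The positions of the 5 genes bear on how their reads were assigned, since reads were counted without regard to strand. *adsk-1* overlaps NCU09897 by 272 bases and *cys-5* overlaps NCU02006 by 222 bases, so reads from the shared stretches cannot be assigned to 1 of both genes with certainty. NCU09897 had mean levels of 104 FPKM in starved Δ*cys-3* cells and 110 FPKM in starved wild-type cells, and NCU02006 had 8.68 FPKM in starved Δ*cys-3* cells and 9.40 FPKM in starved wild-type cells. Of the 12 genes that overlap or flank the 5 members, 7 were tested and none was called in any comparison. The lowest adjusted p among them was 0.0239, for NCU09895 between the media in wild type with a log2 difference of 0.24.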

How the data were processed

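Poly(A) RNA of 12 mycelial cultures was sequenced as single-end 90-bp reads on an Illumina HiSeq instrument. Reads were mapped by the authors with HiSat2 against transcripts predicted in version 12 of the genome, allowing introns no longer than 5000 bp. The deposited FPKM values were computed by the authors with Cufflinks 2.2.1, which ignored strand and normalized to hits compatible with a transcript. The submitters' processing notes name HISAT2 2.1.0, Cufflinks 2.2.1 and Cuffnorm 2.2.1. Values of different libraries were used as deposited, without further scaling.

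Samples were grouped by their labels. Log2 values were taken with a pseudocount of 1, and limma 3.58.1 (R 4.3.3; moderated variances with a trend) estimated the 4 group means from the 12 libraries together, for the 5035 genes whose mean in any group was 10 FPKM or more. Genes with a failed status in any library (4, none a member) were left out. The Benjamini-Hochberg adjustment ran over these 5035 genes. They measure the spread between cultures of 1 strain each. Exact two-sided tests permuted libraries within a medium (or a strain) for the ratios, and an exact test of 3 libraries against 3 cannot go below p = 0.1, so the p values of single genes are those of limma. Reads were derived from the Cufflinks interval of each value as the square of the FPKM over its standard error, with that error taken as the distance to the upper bound divided by 2, and of 15645 results of 20 reads or fewer 77.1% were whole to within 0.05. All members had more than 20 such reads in every library, so that check does not cover them. For *adsk-1* and *cys-5* the derived reads did not follow FPKM closely. The limma fit was tested on simulated data with changes placed in starved wild type only. The ratio tests and the derivation of reads were not tested in this way.

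The genes named are the 5 members, the 3 genes most like each member, their neighbors, *cys-3* and up to 5 called genes of each list by size of change. Members, lists and tests were chosen with earlier results of these data known. The other genes named, *scon-3*, *cys-23*, NCU09642, *inl-3*, *con-6*, *con-8*, *con-10* and *eas* among them, were given to account for a whole list, and those called between strains in 24 μM sulfate because they are few. Promoter and protein sequences, siroheme synthesis and thioredoxin genes were not analysed here. Alternatives were another pseudocount, other minimums and scalings, a fit of only the groups compared, a block for the replicate number, no variance trend, limma-voom on interval-derived reads, and leaving out each library.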

Additional observations from a re-analysis of the deposited data

Results flagged for a closer look

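The response to starvation differed between Δ*cys-3* and wild type, tested as an interaction in limma, for 4 of the 5 sulfate to sulfide genes. A response is again the difference between both media, and whether sulfate-supplied Δ*cys-3* cells were short of sulfur was not tested. The difference of the log2 responses, Δ*cys-3* minus wild type, was −1.93 for *cys-5* (adjusted p = 5.9e-04), −1.16 for *cys-2* (0.0158), −0.81 for *cys-11* (0.00511) and −0.71 for *cys-4* (0.00873).

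The same test passed for other genes of sulfur acquisition, with values of −6.13 for *cys-14*, −4.89 for *trm-50* and −1.67 for *cys-13* among the genes of sulfate entry, and of −9.14 for *tdo-4*, −8.67 for *tdo-2*, −6.68 for *suc-2*, −6.22 for *ars-1* and −5.98 for *tdo-5* among those that release sulfate or sulfite. Downstream of sulfide it was −3.28 for *cys-16* and −1.46 for *met-21*. Among regulators it was −1.55 for *scon-2* and −1.28 for *cys-3*, which is only partly deleted in the mutant. These genes were named because they were called in these same data, so that they passed is not separate support. Not passing were 2 tested genes of sulfate entry, 1 of release, 8 downstream of sulfide and 1 regulator. *inl-3* passed in the other direction (0.63). Of all tested genes, 7.71% passed with a smaller response in the mutant. The values of *tdo-4*, *tdo-2*, *suc-2* and *ars-1* depend on the pseudocount, since every library except those of starved wild type was under 2 FPKM. Groups of 3 libraries are too small for a search for single outlying libraries.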

How the results depend on the processing

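Each comparison was recomputed under up to 22 alternatives. For the 25 differences of single members, 523 of 545 values kept their direction and their side of the threshold. The number of members called was within 1.5 times under all alternatives except for the interaction, where 1 gene was called by limma-voom on interval-derived reads; with each library left out it was 1 to 2. Directions turned only where no difference passed. For starvation in Δ*cys-3*, *adsk-1* was at −0.038 by limma-voom and between −0.094 and 0.19 with each library left out, and *cys-2* at −0.0001 with upper quartile scaling and between −0.10 and 0.20 with each library left out. For the strains in 24 μM sulfate, *adsk-1* lay between −0.014 and 0.30 with each library left out. *cys-4* in that comparison also passed with a pseudocount of 0.1 (adjusted p = 0.0495), after quantile normalization (0.0385) and without wild-type starved replicate 2 (0.0335). The interaction of *adsk-1* passed without Δ*cys-3* replicate 1 in 24 μM sulfate (0.00991) and without wild-type replicate 2 in 24 μM sulfate (0.0483).

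Of the ratios between the media, *cys-11* to *adsk-1* was 0.22 on interval-derived reads (p = 0.15, exact permutation test) and −0.12 to 0.017 with each library left out. *cys-2* to *cys-4* was 0.29 to 0.44 with each library left out, with p of 0.01 to 0.115, and passed only without replicate 3 of either Δ*cys-3* group. The cause of these shifts was not tested.

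Replicate numbers did not pair the libraries throughout (r of same-numbered libraries −0.507 to 0.449). Between the strains in 24 μM sulfate, however, r was 0.235, 0.449 and 0.075 for replicates 1, 2 and 3, so pairing is not excluded there. With a replicate block, 4 members were called between the starved strains and 3 in 24 μM sulfate, and no member changed its call. Over all genes, 287 were called between the starved strains at a minimum of 1 FPKM and 304 with none, against 181. For starvation in Δ*cys-3*, where 1 was called, 0 were called under 5 of the 10 alternatives that kept all libraries, and 0 to 10 with each library left out. *cys-5* in Δ*cys-3* rests on few reads, so changes between the media there were not detectable below its interval.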
